A study of Mus musculus with 9 samples.

Results

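The 10 genes described here are the hypoxia-inducible factor (HIF) subunits Hif1a, Epas1 and Arnt, the prolyl hydroxylases Egln1 and Egln3, and the hypoxia targets Bnip3, Adm, Ndrg1, Ankrd37 and P4ha1. They were taken by symbol from the table of raw read counts, where each matched 1 of 53465 rows, and were followed across 3 groups and across the replicate numbers that the groups share. The RNA came from mouse bone marrow-derived macrophages (BMDMs), macrophages grown from the marrow of male wild-type C57BL/6 mice (C57bl6/J in the methods of the study) in medium with the growth factor CSF1 at 50 ng/ml. Of the 9 libraries, 3 were from untreated cells (UNX), 3 from cells given medium conditioned by pulmonary artery adventitial fibroblasts of control calves (CO-CM), and 3 from cells given medium conditioned by such fibroblasts from calves with hypoxia-induced pulmonary hypertension (PH-CM). The calves with pulmonary hypertension had been kept at low air pressure, but the fibroblasts were grown at ambient oxygen, and no oxygen treatment of these macrophages is described. The labels state 16 h of treatment before RNA isolation and elsewhere 24 h, and the methods of the study give a time between these. The age of the mice is not given. Each conditioned medium was pooled from several fibroblast populations, and no library is tied to a single calf. The media came from bovine cells, whereas the RNA measured was from mouse cells, and UNX cells received no conditioned medium of any kind.

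HIF is a pair of proteins, an oxygen-regulated alpha subunit (HIF-1 alpha, from Hif1a, or HIF-2 alpha, from Epas1) bound to the constant partner encoded by Arnt. In well-oxygenated cells the prolyl hydroxylases encoded by the Egln genes mark the alpha subunit, the VHL complex binds it and it is destroyed, so that its activity is set largely at the protein and not at the mRNA. When the hydroxylases slow, HIF binds a short core sequence near its target genes, among which are Egln1 and Egln3 themselves, and in macrophages it is also raised by inflammatory signals at normal oxygen. Protein was not measured in these libraries.

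The libraries held between 62017933 and 84314201 reads on genes, and 11950 genes passed a filter of a CPM, the read count scaled to library size, above 1 in at least 3 libraries. All 10 members passed. Between 217 and 14622 reads per library were counted on 9 of them, and between 56 and 294 on Adm, so for 9 of the members the spread between cultures, not counting error, sets the precision. The 7 macrophage markers Csf1r, Adgre1, Cd68, Lyz2, Itgam, Fcgr1 and Mertk were all present, with a summed level between 11483 and 12326 CPM in UNX, between 18838 and 19781 in CO-CM and between 20727 and 22404 in PH-CM. Most of this sum was Lyz2 (6854 to 7557 CPM in UNX, 12536 to 13037 in CO-CM and 14487 to 15671 in PH-CM). The medians of Itgam and Fcgr1 were lower in CO-CM than in UNX (99.5 against 106 and 93.0 against 99.0 CPM), with overlapping ranges, and those of the other markers were higher. Markers of fibroblasts summed to between 200.2 and 252.9 CPM in UNX, 274.2 and 325.0 in CO-CM and 254.3 and 339.2 in PH-CM, mostly from Col1a1 and Col1a2. Col3a1 (13.4 to 42.8 CPM), Postn (2.92 to 8.31), Pdgfrb (3.20 to 5.50), Pdgfra (1.44 to 2.76) and Dcn (0.71 to 3.16) were also counted in every library. Lum and Thy1 stayed under 0.26 CPM in every library. Of the endothelial markers Vwf (98.3 to 464 CPM) and Kdr (16.3 to 63.2 CPM) were counted, while Tek, Tie1 and Emcn stayed at or under 0.12 CPM. Cdh5 was at 0.931 to 1.51 CPM in UNX, 0.120 to 0.225 in CO-CM and 0.610 to 1.14 in PH-CM. Vwf was highest in CO-CM, where Kdr and Cdh5 were lowest. Summed markers of granulocytes were at most 4.29 CPM, of mast cells at most 3.32, of lymphocytes at most 0.15 and of red cells at most 0.449. The part of these levels in the results below was not tested, and in bulk RNA a change in the share of a cell type and a change in RNA per cell cannot be told apart.

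A level scaled to both exon length and library size (RPKM) allows the members to be compared with each other. By the median over the 9 libraries the order was P4ha1 (37.2 RPKM), Egln1 (26.2), Bnip3 (18.7), Hif1a (16.9), Egln3 (15.5), Arnt (11.5), Ndrg1 (11.4), Epas1 (9.53), Ankrd37 (5.49) and Adm (1.25). The ranges of neighbours in this order overlapped in every case. The range itself differed widely between members, from 9.24 to 14.5 RPKM for Arnt and from 5.59 to 40.3 RPKM for Egln3. The plot of the members by library shows where this spread lay.

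**Figure D1:**
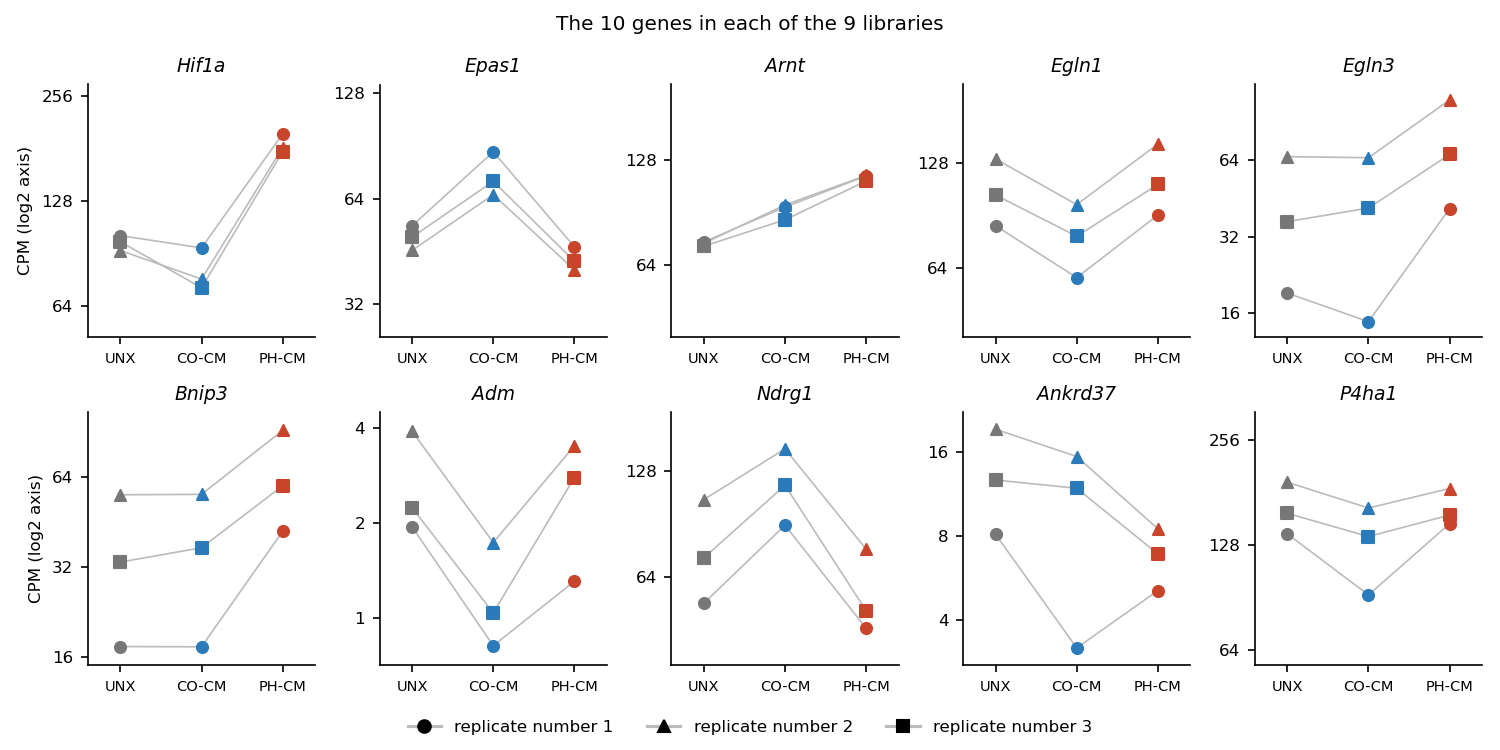
Level of each of the 10 genes in CPM (read count scaled to library size with TMM factors, log2 axis) in the 9 libraries, with colours for the groups, symbols for the replicate numbers and grey lines joining libraries with the same number. Hif1a, Epas1 and Arnt formed tight groups, for example 177 to 199 CPM for Hif1a in PH-CM, whereas in the other 7 panels number 2 was the highest and number 1 the lowest in each group, for example 14.9 and 65.2 CPM for Egln3 in CO-CM.

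Hif1a encodes HIF-1 alpha (chromosome 12, 73901375 to 73947530, plus strand, GRCm38). Its level was 102, 92.3 and 97.8 CPM in UNX libraries 1 to 3, 93.9, 76.5 and 72.2 in CO-CM and 199, 182 and 177 in PH-CM. All PH-CM libraries lay above all others, while UNX and CO-CM overlapped. The mRNA was 1.91-fold higher in PH-CM than in UNX (log2 fold change 0.94 ± 0.090 SE, FDR 4.97e-06) and 2.3-fold higher than in CO-CM (1.2 ± 0.091, FDR 5.34e-06). Here FDR is the Benjamini-Hochberg adjusted p over all 11950 genes from edgeR's quasi-likelihood test, and calls required 0.05 or less together with a 1.2-fold difference or more. CO-CM was lower than UNX by a small step (-0.27 ± 0.090, FDR 0.0221) that sat close to the fold threshold. It was no longer called by the DESeq2 Wald test (-0.26), with DESeq2 size factors (-0.26) or with upper-quartile factors (-0.20). Nor was it called without UNX library 1 (-0.25), CO-CM library 2 (-0.23) or CO-CM library 3 (-0.19). Exons of Gm15283 on the other strand, with 5 to 65 reads per library, and of Gm49321 cover 8.11% of its exon bases.

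Epas1 encodes HIF-2 alpha (chromosome 17, 86753700 to 86833410, plus strand), which shares the DNA core sequence of HIF-1 alpha but has partly different targets. It was at 53.5, 45.5 and 49.6 CPM in UNX, 87.2, 65.7 and 71.7 in CO-CM and 46.6, 40.0 and 42.4 in PH-CM. The 3 CO-CM libraries stood above all others, and UNX and PH-CM overlapped. CO-CM was higher than UNX (0.60 ± 0.10, FDR 0.000424) and PH-CM lower than CO-CM (-0.80 ± 0.10, FDR 0.000189), while PH-CM against UNX gave -0.20 ± 0.10 (FDR 0.0956), which was called only without UNX library 2 (-0.27, FDR 0.0478). With the replicate number also in the fit, PH-CM against UNX was -0.21 ± 0.045 (FDR 0.00144), under the fold threshold. The alpha subunits thus differed between the media in opposite directions, Hif1a being highest in PH-CM and Epas1 in CO-CM.

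Arnt (chromosome 3, 95434388 to 95497240, plus strand), the shared partner, was at 74.7, 74.0 and 72.6 CPM in UNX, 94.0, 95.3 and 86.4 in CO-CM and 115, 116 and 112 in PH-CM. No groups overlapped. It was higher in CO-CM than in UNX (0.32 ± 0.046, FDR 0.00013), higher again in PH-CM than in CO-CM (0.31 ± 0.046, FDR 0.000431) and 1.55-fold higher in PH-CM than in UNX (0.63 ± 0.046, FDR 6.11e-07). With library size alone as the scaling the CO-CM step was 0.25, under the fold threshold.

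The ratio of Hif1a to Epas1 within a library, from RPKM, needs no scaling between libraries. It was 1.71, 1.83 and 1.77 in UNX, 0.97, 1.05 and 0.907 in CO-CM and 3.85, 4.10 and 3.76 in PH-CM. On the log2 scale the mean was 0.82 ± 0.046 (SD, n = 3) in UNX, -0.04 ± 0.10 in CO-CM and 1.96 ± 0.064 in PH-CM. The groups were fully apart, and the differences were 1.14 for PH-CM against UNX, -0.86 for CO-CM against UNX and 2.00 for PH-CM against CO-CM. Each had p = 0.1 in a two-sided exact permutation test, the smallest that 3 libraries against 3 can give, so this design cannot reach 0.05.

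**Figure D2:**
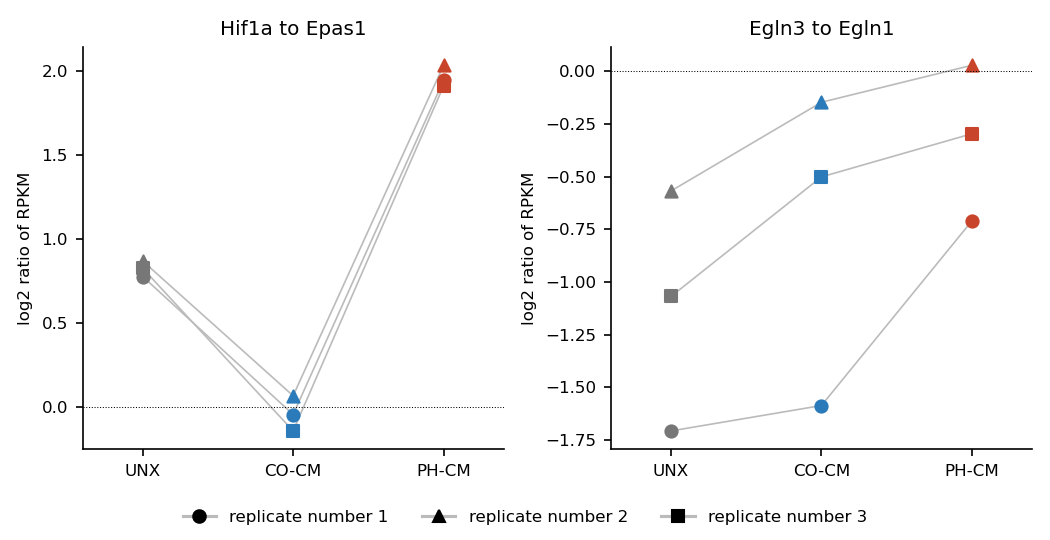
Log2 ratio of the RPKM of Hif1a to Epas1 (left) and of Egln3 to Egln1 (right) in each library, with colours for the groups, symbols for the replicate numbers and lines joining the same number. The Hif1a to Epas1 ratio lay between -0.14 and 0.07 in CO-CM and between 1.91 and 2.04 in PH-CM, while the Egln3 to Egln1 ratio spread from -1.59 to -0.15 within CO-CM alone.

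The other 7 members, the hydroxylases and the targets, had a different kind of spread. The labels number the libraries of each group 1 to 3, and libraries with the same number deviated from their group means together over all genes. The study states that the experiment was repeated, but no source says which repeat a number stands for. For each of these 7 genes the level was highest in number 2, then number 3, then number 1, in all 3 groups. As a description over the 9 libraries, the replicate number held 56.4% of the variation of log2 CPM for Egln1, 70.8% for Egln3, 64.9% for Bnip3, 43.3% for Adm, 37.8% for Ndrg1, 60.0% for Ankrd37 and 57.9% for P4ha1. It held 3.06% for Hif1a, 10.9% for Epas1 and 1.71% for Arnt, for which the group held 95.8%, 88.0% and 97.7%. The median over all genes tested was 5.89% for the number and 87.8% for the group.

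**Figure D3:**
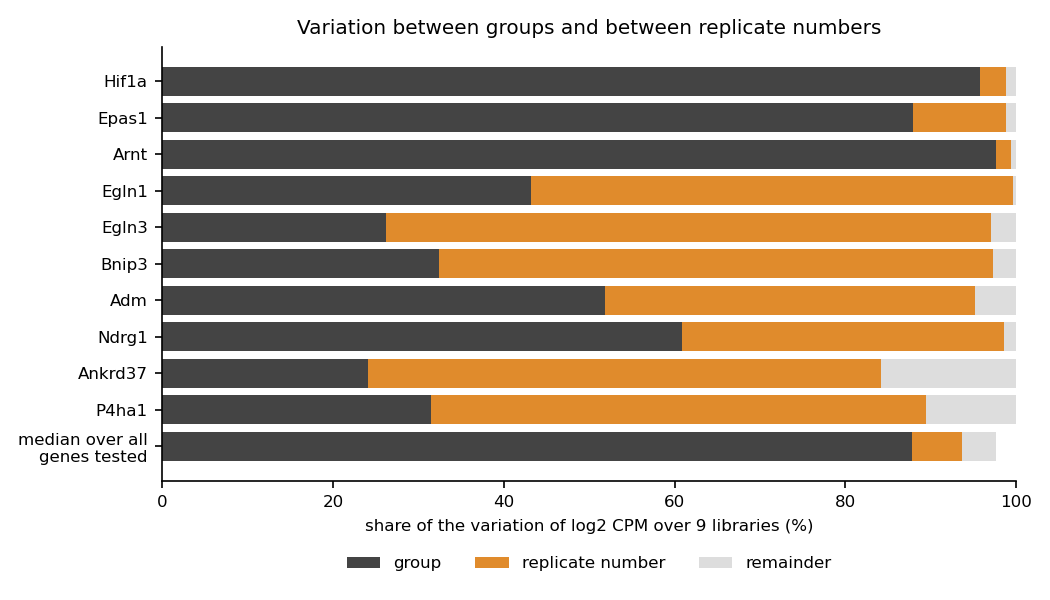
Share of the variation of log2 CPM over the 9 libraries that lay between groups, between replicate numbers and in the remainder, in percent, for each gene, with the median of each share over all genes tested in the last bar, whose parts need not add up to 100. The number held at most 10.9% for Hif1a, Epas1 and Arnt and between 37.8% and 70.8% for the other 7 genes, against a median of 5.89%.

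The counts of members called depended on whether the replicate number entered the fit as a block. In PH-CM against UNX 2 of the 10 members were called, both higher, against 63.0% of all genes, and 6 were called with the block, 4 higher and 2 lower, against 64.6%. In CO-CM against UNX 4 were called, 2 higher and 2 lower, against 57.0%, and 7 with the block, 3 higher and 4 lower, against 58.9%. In PH-CM against CO-CM 4 were called, 2 higher and 2 lower, against 27.1%, and 9 with the block, 7 higher and 2 lower, against 30.4%. In the comparisons with UNX the share of members called was below that of all genes without the block and near it with the block, and in PH-CM against CO-CM it was above it in both fits. The comparisons share libraries, so their counts are not independent. With no filter on low counts and no block 6, 7 and 9 members were called, and every member comparison given below as called with the block was called then too. Without the block, leaving out UNX library 1 or 2 raised the first count to 4, and leaving out CO-CM library 3 lowered the second to 2.

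**Figure D4:**
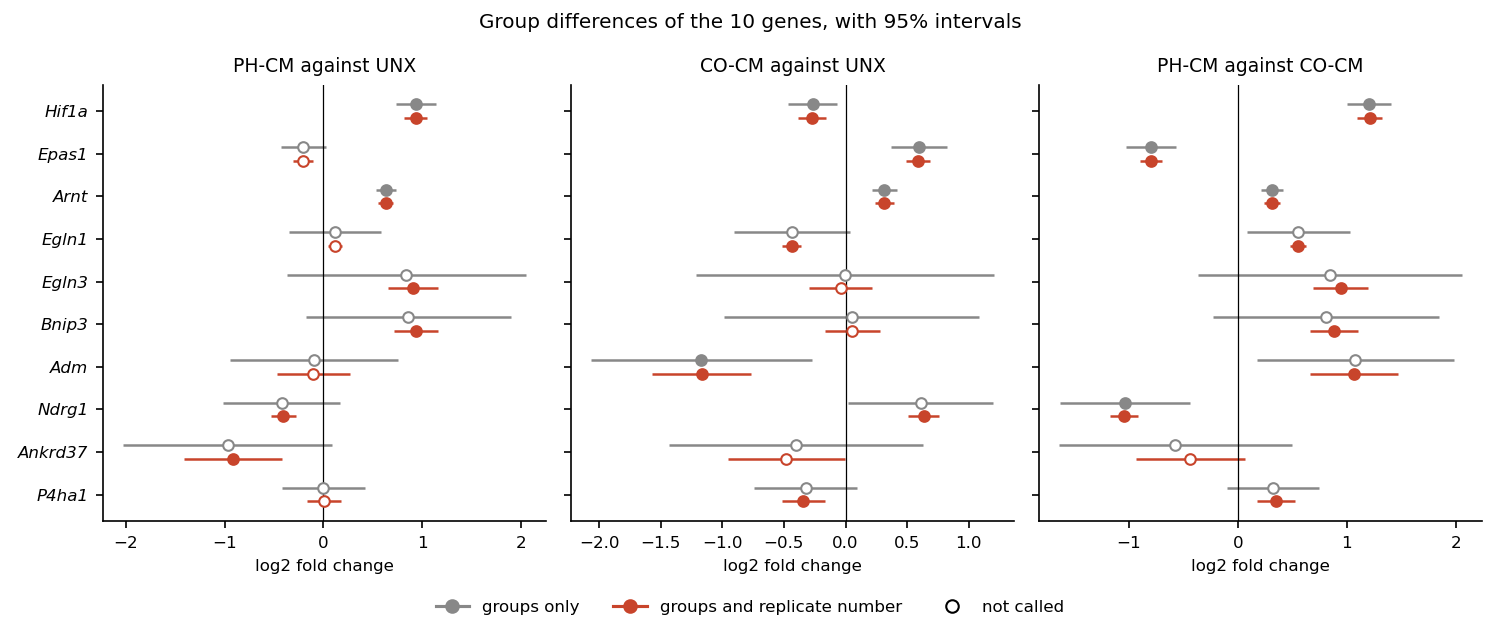
Log2 fold change of each gene in the 3 comparisons with its 95% interval, from the fit with the groups only (grey) and with the groups and the replicate number (red), filled where called and open where not. The 3 HIF subunits had narrow intervals in either fit, while the interval of Egln3 in PH-CM against UNX ran from -0.37 to 2.05 with the groups only and was entirely above 0 with the number, around 0.90.

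Egln1 (chromosome 8, 124908587 to 124949324, minus strand) encodes the main hydroxylase of HIF-1 alpha in most cells. It was at 84.8, 132 and 104 CPM in UNX libraries 1 to 3, 60.3, 97.5 and 79.1 in CO-CM and 91.0, 145 and 111 in PH-CM. The groups overlapped, but within each number CO-CM was the lowest and PH-CM the highest. By the quasi-likelihood test without the block no comparison passed (FDR 0.0639 to 0.63). With it, CO-CM was lower than UNX (-0.44 ± 0.034, FDR 5.19e-07) and PH-CM higher than CO-CM (0.55 ± 0.034, FDR 3.31e-07), with differences within numbers 1, 2 and 3 of 0.59, 0.58 and 0.49. PH-CM against UNX stayed under the fold threshold (0.12 ± 0.033, FDR 0.00822 with the block). Even without the block, PH-CM was called higher than CO-CM by the edgeR exact test (0.55, FDR 0.0296), with only these groups in the fit (0.56, FDR 0.0475) and with library size alone as the scaling (0.57, FDR 0.0471), which also called CO-CM lower than UNX (-0.51, FDR 0.0425). CO-CM was called lower than UNX as well when UNX library 1 (-0.59) or CO-CM library 2 (-0.61) was left out, and PH-CM higher than CO-CM without UNX library 1 or 2 (0.56 each), CO-CM library 2 (0.73) or PH-CM library 1 (0.71).

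Egln3 (chromosome 12, 54178981 to 54203860, minus strand), a hydroxylase with a preference for HIF-2 alpha and one of the genes most sensitive to HIF, was at 19.2, 65.8 and 36.6 CPM in UNX, 14.9, 65.2 and 41.4 in CO-CM and 41.2, 110 and 67.1 in PH-CM. Within each number PH-CM was the highest, whereas PH-CM library 1 was lower than UNX library 2 and CO-CM libraries 2 and 3. The difference between PH-CM and UNX was 0.84 ± 0.54 (FDR 0.185) and with the block 0.90 ± 0.11 (FDR 2.38e-05), with 1.10, 0.74 and 0.87 within numbers 1, 2 and 3. PH-CM against CO-CM gave 0.84 ± 0.55 (FDR 0.253) and with the block 0.94 ± 0.11 (FDR 5.64e-05), with 1.47, 0.75 and 0.70 within the numbers. CO-CM against UNX was not called in either fit (-0.01 ± 0.54, and -0.04 ± 0.12 with the block), and its sign differed between numbers. Number 2 stood 3.36-fold above number 1 over the groups, a larger step than that between PH-CM and UNX, which was 1.87-fold with the block.

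The ratio of Egln3 to Egln1 followed both groupings. It was 0.306, 0.675 and 0.477 in UNX, 0.333, 0.903 and 0.707 in CO-CM and 0.611, 1.02 and 0.814 in PH-CM, so PH-CM library 2 was the only library in which Egln3 had the higher RPKM. The log2 differences were 0.79 for PH-CM against UNX (p = 0.2), 0.37 for CO-CM against UNX (p = 0.5) and 0.42 for PH-CM against CO-CM (p = 0.6) in the two-sided exact permutation test, none past the threshold. In each comparison the difference had the same sign within all 3 numbers, for which the exact sign-flip test cannot go below 0.25. Without CO-CM library 1, PH-CM against CO-CM gave -0.0020.

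Of the targets, Bnip3 encodes a mitochondrial protein of mitophagy and cell death, Adm the vasodilator peptide adrenomedullin, P4ha1 the catalytic subunit of collagen prolyl 4-hydroxylase, Ndrg1 a stress-response protein linked to differentiation, and Ankrd37 a small ankyrin repeat protein. The promoters of 5 members are shown so that the HIF core can be seen in place. Each line holds the 250 bases before the RefSeq start (GRCm38.p6), 5′ to 3′ on the gene's strand, with capitals for ACGTG or GCGTG on either strand, which read CACGT or CACGC on the other. The lines are Egln3 (chr12:54203875-54204124, minus strand), Bnip3 (chr7:138909507-138909756, minus), P4ha1 (chr10:59323046-59323295, plus), Adm (chr7:110627407-110627656, plus) and Ankrd37 (chr8:45999851-46000100, minus), the last lying inside a longer GENCODE model of the gene.
Egln3: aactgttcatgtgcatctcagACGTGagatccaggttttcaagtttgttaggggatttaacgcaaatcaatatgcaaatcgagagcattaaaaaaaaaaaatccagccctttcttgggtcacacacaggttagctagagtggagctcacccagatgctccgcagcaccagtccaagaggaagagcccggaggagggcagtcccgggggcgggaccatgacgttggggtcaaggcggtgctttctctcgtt
Bnip3: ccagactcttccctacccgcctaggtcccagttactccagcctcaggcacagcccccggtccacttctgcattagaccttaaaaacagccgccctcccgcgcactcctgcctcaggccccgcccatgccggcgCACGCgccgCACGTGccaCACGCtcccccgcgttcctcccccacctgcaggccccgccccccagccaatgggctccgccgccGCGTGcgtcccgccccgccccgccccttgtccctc
P4ha1: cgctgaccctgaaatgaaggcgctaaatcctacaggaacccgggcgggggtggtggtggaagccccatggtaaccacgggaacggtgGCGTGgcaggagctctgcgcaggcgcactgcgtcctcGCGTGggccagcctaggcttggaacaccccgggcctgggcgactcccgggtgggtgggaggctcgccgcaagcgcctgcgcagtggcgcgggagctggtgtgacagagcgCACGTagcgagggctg
Adm: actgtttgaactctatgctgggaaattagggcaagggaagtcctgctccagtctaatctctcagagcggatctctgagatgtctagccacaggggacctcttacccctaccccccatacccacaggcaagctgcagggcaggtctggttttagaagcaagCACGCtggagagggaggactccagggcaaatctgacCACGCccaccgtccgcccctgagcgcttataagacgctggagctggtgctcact
Ankrd37: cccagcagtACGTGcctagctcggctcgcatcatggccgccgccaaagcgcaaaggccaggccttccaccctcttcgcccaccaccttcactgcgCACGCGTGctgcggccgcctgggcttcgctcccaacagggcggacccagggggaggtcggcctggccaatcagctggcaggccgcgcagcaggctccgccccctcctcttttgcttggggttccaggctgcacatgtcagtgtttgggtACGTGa

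Of the 10 members 8 had a RefSeq promoter entry, and all 8 held at least 1 such core in these 250 bases, against 38.6% of the 32851 promoters listed. Counting overlapping matches once, Bnip3 held 4, P4ha1 and Ankrd37 3 each, Egln1, Adm and Hif1a 2 each, and Egln3 and Arnt 1 each, and 6 of the 8 held at least 2, against 13.5% of all promoters. In Bnip3 the matches began between 117 and 99 bases before the start and at 35, in Adm at 90 and 54, in P4ha1 at 163, 126 and 16, and in Egln3 at 229. The promoters listed were not matched to the members for base composition or expression, and the difference in shares was not tested. A match is a stretch of letters and not a measured binding site.

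Bnip3 (chromosome 7, 138890836 to 138909519, minus strand) was at 17.4, 55.9 and 33.3 CPM in UNX, 17.3, 56.1 and 37.2 in CO-CM and 42.2, 91.8 and 59.9 in PH-CM. UNX and CO-CM had nearly the same values number by number, and PH-CM was higher in each number. PH-CM against UNX gave 0.86 ± 0.47 (FDR 0.118) and with the block 0.94 ± 0.10 (FDR 6.25e-06), a 1.92-fold difference. PH-CM against CO-CM gave 0.81 ± 0.47 (FDR 0.2) and with the block 0.88 ± 0.10 (FDR 3.55e-05). The differences from UNX within numbers 1, 2 and 3 were 1.28, 0.71 and 0.85, and without UNX library 2 the comparison was called also without the block (1.33, FDR 0.0311). In the GENCODE annotation an antisense gene without reads in the count table, Gm45507, covers 22.3% of the exon bases of Bnip3, and the counting is described without a strand option.

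Adm (chromosome 7, 110627661 to 110629820, plus strand) was the least abundant member, at 1.94, 3.90 and 2.24 CPM in UNX, 0.819, 1.74 and 1.04 in CO-CM and 1.31, 3.51 and 2.79 in PH-CM. Every CO-CM library lay below every UNX library, while PH-CM overlapped both. CO-CM was lower than UNX (-1.17 ± 0.40, FDR 0.0241), a call lost without UNX library 2 (-0.82, FDR 0.10), CO-CM library 1 (-0.96, FDR 0.0788) or CO-CM library 3 (-1.08, FDR 0.0746). PH-CM was above CO-CM by 1.08 ± 0.41 (FDR 0.0602), called with the block (1.07 ± 0.18, FDR 0.000664), by DESeq2 (FDR 0.0182), by the edgeR exact test (FDR 0.0246) and without UNX library 2 (1.08), CO-CM library 2 (1.44) or PH-CM library 1 (1.40). PH-CM against UNX gave -0.09 ± 0.38 and was not called in either fit.

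Ndrg1 (chromosome 15, 66929318 to 66969640, minus strand) ran the other way between the media. It was at 53.7, 106 and 72.4 CPM in UNX, 89.8, 149 and 117 in CO-CM and 45.5, 76.7 and 51.1 in PH-CM, so that every PH-CM library lay below every CO-CM library. PH-CM was 0.488-fold of CO-CM (-1.04 ± 0.27, FDR 0.012). The differences from UNX were called with the block: CO-CM was higher (0.61 ± 0.27, FDR 0.0623, and 0.63 ± 0.057, FDR 1.89e-06 with the block) and PH-CM lower (-0.42 ± 0.27, FDR 0.173, and -0.41 ± 0.058, FDR 6.59e-05 with the block). CO-CM was called higher than UNX also by the edgeR exact test (FDR 0.0347) and with upper-quartile factors (0.67, FDR 0.0426). Leaving out 1 library brought these calls as well, for CO-CM without UNX library 2 (0.89), CO-CM library 1 (0.78) or PH-CM library 2 (0.61), and for PH-CM without UNX library 1 (-0.64). Antisense models with at most 6 reads per library cover 8.43% of its exon bases. In its direction between the media Ndrg1 resembled Epas1 and differed from Egln1, Egln3, Bnip3, Adm and P4ha1, while in its order over the numbers it resembled the latter.

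Ankrd37 (chromosome 8, 45996902 to 46005707, minus strand) was at 8.09, 19.2 and 12.7 CPM in UNX, 3.17, 15.4 and 11.8 in CO-CM and 5.09, 8.47 and 6.89 in PH-CM. The groups overlapped, and by the quasi-likelihood test without the block no comparison passed. With it PH-CM was lower than UNX (-0.97 ± 0.48, FDR 0.0873, and -0.92 ± 0.22, FDR 0.00289 with the block), with -0.67, -1.18 and -0.88 within numbers 1, 2 and 3. Against CO-CM the sign was mixed, 0.68 in number 1 and -0.86 and -0.78 in numbers 2 and 3, and the comparison was not called (FDR 0.38, and 0.135 with the block) unless CO-CM library 1 was left out (-0.997, FDR 0.0333). PH-CM against UNX was called also with only these groups in the fit (-0.97, FDR 0.0167), with no filter on low counts (-1.01, FDR 0.000628) and without UNX library 1 (-1.24) or CO-CM library 1 (-0.97). Exons on the other strand share 26.4% of its exon bases, 22.7% with Lrp2bp (4 to 30 reads) and 3.70% with Ufsp2 (3811 to 5844 reads). Without strand the reads from the shared bases cannot be told apart.

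P4ha1 (chromosome 10, 59323296 to 59373304, plus strand) had the smallest group differences of the members, at most 0.32 on the log2 scale in either direction without the block. It was at 138, 194 and 158 CPM in UNX, 92.2, 164 and 135 in CO-CM and 147, 186 and 156 in PH-CM. UNX and PH-CM were nearly equal and CO-CM was lowest in each number, most clearly in number 1. CO-CM against UNX gave -0.32 ± 0.19 (FDR 0.149), called lower with the block (-0.34 ± 0.078, FDR 0.00215) or without CO-CM library 2 (-0.52), and PH-CM against CO-CM gave 0.32 ± 0.19 (FDR 0.205), called higher with the block (0.35 ± 0.078, FDR 0.00341).

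The replicate number was then tested itself, in the fit with group and number, at an FDR of at most 0.05 with no fold threshold. This test was chosen after the data were seen. Of the 10 members 9 differed by number, all but Arnt (FDR 0.207), against 19.3% of all genes. The 7 hydroxylases and targets differed in the order number 2 above 3 above 1, which held for 6.47% of all genes. The FDR here is for any difference between the numbers, and the order is that of the estimates. Number 2 against 3 alone did not pass for Ankrd37 (FDR 0.331), P4ha1 (0.119) or Adm (0.115). Number 3 against 1 alone did not pass for Adm (0.0677). Number 2 exceeded number 1 by 1.75 ± 0.12 (log2) for Egln3, 1.48 ± 0.10 for Bnip3, 1.38 ± 0.23 for Ankrd37, 1.16 ± 0.18 for Adm, 0.82 ± 0.058 for Ndrg1, 0.67 ± 0.034 for Egln1 and 0.54 ± 0.078 for P4ha1, with FDR from 2.21e-05 to 0.00717. Hif1a and Epas1 differed the other way, with number 2 below number 1 by small steps (-0.19 ± 0.052, FDR 0.0297, and -0.29 ± 0.044, FDR 0.00494). The count of members was 8 or 9 when any library was left out, and 9 under each other scaling and filter. Over all genes it was 2308, with 1503, 1159 and 1473 without CO-CM library 1, 2 or 3 and 1283 without PH-CM library 3. Depth overlapped between the numbers, at 62017933 to 68317274 reads in number 1, 63493877 to 73898895 in number 2 and 64348861 to 84314201 in number 3. Within a group the summed macrophage markers of number 2 were 1.04 to 1.08 times those of number 1, the fibroblast markers 0.979 to 1.23 times and the endothelial markers 1.06 to 1.28 times, and the part of these levels was not tested.

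**Figure D5:**
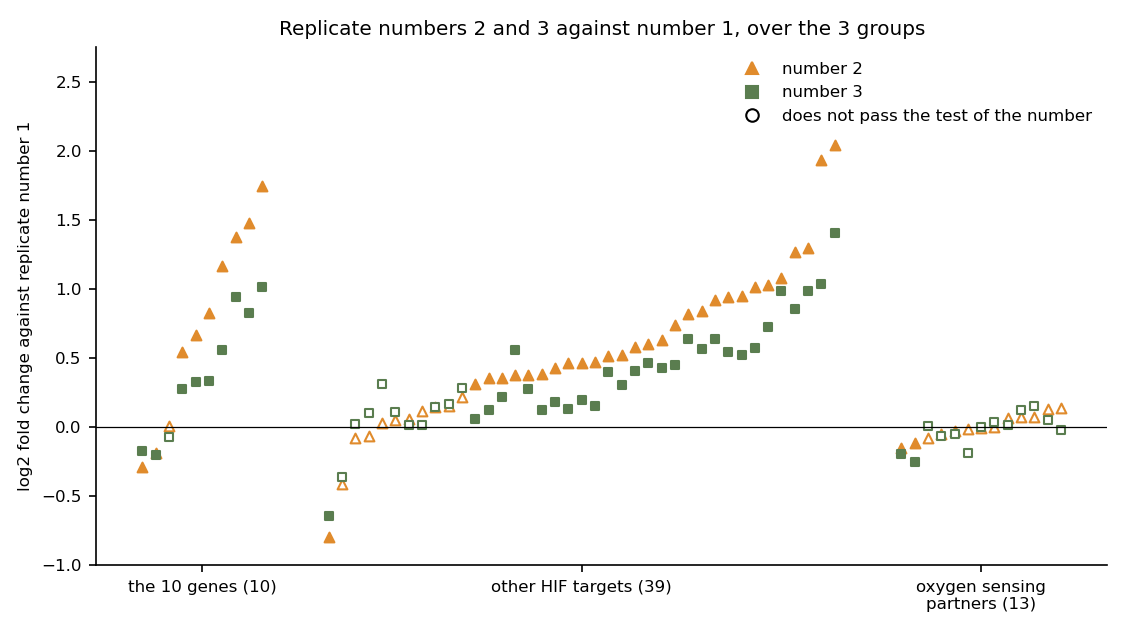
Log2 fold change of replicate numbers 2 (triangles) and 3 (squares) against number 1 over the 3 groups, for each of the 10 genes, the 39 other HIF targets and the 13 oxygen sensing partners that passed the filter, sorted within each set, with open symbols for genes that did not pass the test of the number. Most members and other targets lie above 0 with number 2 highest, up to 1.75 for Egln3 among the members, while the oxygen sensing partners lie near 0, with a median of -0.01.

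The oxygen sensing partners, genes that modify, degrade or assist HIF, were called in shares near or below those of all genes, both between the groups and between the numbers. Of 16 listed 13 passed the filter, and Hif3a, Arnt2 and P4htm did not, with 6, 235 and 142 reads in all libraries together. In PH-CM against UNX 7 of the 13 (53.8%, against 63.0% of all genes) were called, 4 higher and 3 lower. In CO-CM against UNX 7 were called (against 57.0%), 5 higher and 2 lower, and in PH-CM against CO-CM 1 (7.69% against 27.1%), lower. The last count was 3 without CO-CM library 1 and 2 without PH-CM library 2 or 3. Their median log2 fold changes were 0.17, 0.06 and 0.02, where those of all genes were 0.01, 0.00 and -0.01. By number 2 of the 13 differed (15.4% against 19.3%), Ep300 and Crebbp, both lower in number 2 than in number 1.

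The ubiquitin ligase Siah2, which degrades the prolyl hydroxylases, was at 18.0, 18.3 and 18.4 CPM in UNX, 10.1, 9.31 and 10.6 in CO-CM and 10.2, 10.7 and 9.32 in PH-CM. It was lower in PH-CM than in UNX (-0.86 ± 0.074, FDR 2.1e-06) and in CO-CM than in UNX (-0.87 ± 0.074, FDR 2.74e-06). Eloc, which encodes elongin C of the VHL complex, was also lower in both media (-0.63 and -0.73), whereas Vhl itself was higher in both (0.35 ± 0.074, FDR 0.00155, and 0.48 ± 0.074, FDR 0.00019). Os9, whose product has been linked to HIF-1 alpha turnover, was higher by 0.63 and 0.61, and the coactivator gene Crebbp by 0.59 and 0.35. Cited2, whose product competes with HIF for that coactivator, was the 1 partner called between the media, at 83.0, 96.9 and 87.7 CPM in CO-CM and 63.8, 73.6 and 69.9 in PH-CM (-0.37 ± 0.067, FDR 0.0016). The third hydroxylase gene, Egln2, and Hif1an, which encodes the asparagine hydroxylase of HIF, stayed under the fold threshold in PH-CM against UNX (0.18 and 0.17). Hif1an was called higher in CO-CM than in UNX (0.28 ± 0.050, FDR 0.000607), but not with library size alone as the scaling (0.21), no filter on low counts (0.24) or filterByExpr (0.24). The call was also lost without UNX library 1 (0.25), UNX library 3 (0.26) or CO-CM library 1 (0.25). Crebbp, at 0.24 between the media, was called there without CO-CM library 1 (0.32) or PH-CM library 2 or 3 (0.27 each).

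The other HIF targets are 44 genes of glycolysis, mitochondrial adjustment, matrix, vessel growth and HIF feedback, of which 39 passed the filter. Cox4i2, Pgf, Edn1, Epo and Car12 did not, and Epo had no read in any library. In PH-CM against UNX 21 of the 39 were called (53.8%, against 63.0% of all genes), 17 higher and 4 lower, with a median of 0.40, and 26 with the block (66.7% against 64.6%), 20 higher and 6 lower. In CO-CM against UNX 17 were called (43.6% against 57.0%), 10 higher and 7 lower, with a median of 0.03, and 31 with the block (79.5% against 58.9%), 14 higher and 17 lower. In PH-CM against CO-CM 14 were called (35.9% against 27.1%), 12 higher and 2 lower, with a median of 0.40, and 28 with the block (71.8% against 30.4%), 24 higher and 4 lower. By number 29 of the 39 differed (74.4% against 19.3%), 28 of them higher in number 2 than in number 1 and 27 in the order 2, 3, 1 (69.2% against 6.47%). The median step from number 1 to number 2 was 0.46, where it was 0.00 over all genes. The exception was Tfrc, the transferrin receptor gene, which was lower in number 2.

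Vegfa, the gene of the vessel growth factor VEGF-A, carried both patterns at once. It was at 48.5, 99.1 and 73.5 CPM in UNX, 65.9, 162 and 105 in CO-CM and 325, 474 and 413 in PH-CM, with PH-CM above all other libraries and number 2 the highest in each group. It was 5.48-fold higher in PH-CM than in UNX (2.45 ± 0.33, FDR 5.71e-05) and 3.64-fold higher than in CO-CM (1.87 ± 0.32, FDR 0.00119). CO-CM against UNX was called with the block (0.59 ± 0.31, FDR 0.12, and 0.56 ± 0.10, FDR 0.000518 with the block), with no filter on low counts (0.55) or without UNX library 2 (0.84) or CO-CM library 1 (0.85).

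Mxi1, which encodes an antagonist of MYC, rose in steps from 25.6, 41.4 and 30.8 CPM in UNX to 54.1, 80.2 and 69.7 in CO-CM and 128, 161 and 154 in PH-CM (2.18 ± 0.18 for PH-CM against UNX, FDR 1.78e-06). Lox, the gene of the collagen cross-linking enzyme lysyl oxidase, was at 12.9, 13.7 and 14.3 CPM in UNX, 33.4, 31.8 and 30.8 in CO-CM and 36.8, 49.2 and 49.0 in PH-CM (1.72 ± 0.10, FDR 1.61e-07). Ddit4, which encodes the mTORC1 inhibitor REDD1, was at 3.77, 4.93 and 4.70 CPM in UNX, 4.80, 4.28 and 5.06 in CO-CM and 13.6, 15.6 and 14.9 in PH-CM (1.72 ± 0.11, FDR 3.1e-07). Lox and Ddit4 did not pass the test of the number (FDR 0.364 and 0.389). Ndufa4l2, a subunit-like gene of the respiratory chain, was higher in PH-CM than in UNX (1.84 ± 0.69, FDR 0.0314) but was at or under 1.67 CPM in every library. In UNX it was at 0.0617 to 0.636 CPM, so it passed the filter only through libraries given conditioned medium, where it was higher. Its tests against UNX are therefore not independent of the filter. The call in PH-CM against UNX was lost without UNX library 1 (1.40) or UNX library 3 (1.56). Its CO-CM level against UNX gave 1.44 ± 0.70 (FDR 0.0896), called with the block (1.57 ± 0.34, FDR 0.00138), with no filter on low counts (1.40) or without UNX library 2 (2.60) or CO-CM library 1 (1.77).

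Among genes of glucose use the order over the numbers was that of the hydroxylases. The glucose transporter gene Slc2a1 was at 112, 196 and 147 CPM in UNX, 53.6, 128 and 102 in CO-CM and 99.7, 172 and 126 in PH-CM. Pdk1, whose kinase restrains pyruvate dehydrogenase, was at 116, 209 and 170, at 57.3, 157 and 125 and at 95.4, 166 and 137 CPM in the same order, and Ldha, of lactate dehydrogenase, at 1081, 1827 and 1542, at 703, 1499 and 1313 and at 1296, 1996 and 1840. In all of them the groups overlapped and CO-CM was the lowest within each number. By the quasi-likelihood test without the block none was called in any comparison. With it CO-CM was lower than UNX for Slc2a1 (-0.72 ± 0.091, FDR 2.62e-05), Pdk1 (-0.60 ± 0.11, FDR 0.000349) and Ldha (-0.37 ± 0.076, FDR 0.00102). PH-CM was higher than CO-CM for each with the block (0.53, 0.30 and 0.59), and lower than UNX for Pdk1 (-0.31 ± 0.11, FDR 0.02). For Slc2a1 the edgeR exact test (-0.68, FDR 0.0388), library size alone (-0.76, FDR 0.0392) and leaving out UNX library 1 (-0.88) or CO-CM library 2 (-0.97) also brought the call of CO-CM below UNX. With no filter on low counts CO-CM was called lower than UNX for all of them, and PH-CM higher than CO-CM for Slc2a1 and Ldha.

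Adrenomedullin signals through a receptor made of Calcrl and a RAMP protein, which sets the ligand it prefers. Calcrl was at 80.4, 55.8 and 62.3 CPM in UNX, 33.2, 36.8 and 35.2 in CO-CM and 19.0, 22.3 and 18.8 in PH-CM, and no groups overlapped. It was lower in PH-CM than in UNX (-1.72 ± 0.12, FDR 5.51e-07) and than in CO-CM (-0.81 ± 0.12, FDR 0.000564). Ramp1, in contrast, was at 1.51, 1.88 and 1.79 CPM in UNX, 8.40, 10.7 and 7.98 in CO-CM and 1.84, 2.74 and 2.09 in PH-CM, higher in CO-CM than in UNX (2.38 ± 0.17, FDR 8.59e-07) and lower in PH-CM than in CO-CM (-2.02 ± 0.17, FDR 1.13e-05), while PH-CM against UNX was called with the block (0.35 ± 0.13, FDR 0.0248) or without PH-CM library 1 (0.48). Ramp2 and Ramp3, whose products give the receptor its preference for adrenomedullin, did not pass the filter, with 28 and 112 reads in all libraries together. Ramp3 was nevertheless at 0.476, 0.515 and 0.617 CPM in PH-CM, from 32, 32 and 39 reads, and had at most 3 reads in any UNX or CO-CM library, a difference that was not tested. Neither Calcrl nor Ramp1 passed the test of the number (FDR 0.697 and 0.0597).

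The members' patterns were also compared with those of all genes tested, by the root mean square (RMS) difference of log2 CPM over the 9 libraries after centring each gene on its own mean. Egln3 and Bnip3 were each other's nearest gene (RMS 0.144, where the median over all genes was 0.897 for Egln3), followed by Rgs11 for both and then by the lactate exporter gene Slc16a3 for Egln3 and by Dcn for Bnip3. Dcn is among the fibroblast markers and was between 0.71 and 3.16 CPM, also highest in number 2 and lowest in number 1 of each group. Egln1 and P4ha1 lay 0.127 apart, each being the third gene of the other, and the glycolytic gene Eno1 was near both (0.0986 and 0.0781), with Gapdh second for P4ha1. Slc2a1 was the third gene of Adm (0.327), and Pdk1 the second of Ankrd37 (0.374). The nearest genes of Hif1a (Man2a1, 0.0905), Epas1 (Papss2, 0.0925), Arnt (Tgoln1, 0.0275) and Ndrg1 (Gbp8, 0.114) were in none of the lists used here. Hif1a and Epas1 lay 0.822 apart and Epas1 and Egln3, the most distant pair of members, 1.13 apart.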

How the data were processed

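RNA-Seq of 9 libraries was analysed, 3 per group, grouped and numbered from their labels. The authors ran AfterQC, STAR against GRCm38 and featureCounts 1.6.2 (version from the submitters' processing notes) on exons, with no stated option for strand or read pairs. The deposited read counts are whole numbers without normalization. The RPKM values deposited by the authors are these counts scaled to exon length and counted reads. The authors' comparison tables hold fold changes and p-values and were not used. Between 81.4% and 83.8% of the counts under 20 were even, which fits counting of single mates.

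Counts were fitted in R 4.3.3 with edgeR 4.0.16 (quasi-likelihood test, TMM, all 9 libraries, a mean per group). Genes needed a CPM above 1 in at least 3 libraries. The thresholds for a call were 0.05 for the FDR and 1.2 for the fold, as the authors used. Log2 CPM used a prior count of 2. The exact permutation tests of ratios used RPKM. Alternatives were DESeq2 1.42.0, the edgeR exact test, other scalings and filters, a fold of 2, only the 2 groups compared, a replicate block and each library left out. Nothing says that the libraries of a group came from separate mice, so p-values measure the spread between these libraries.

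Deviations from the group means correlated over genes between libraries of different groups with the same number in all 9 pairs (r from 0.276 to 0.484) and by at most 0.042 in the 18 pairs with different numbers, and the number was therefore treated as a pairing. Deviations within a group cancel out, so the lower values in the 18 pairs follow in part from the higher ones in the 9 and are not separate evidence. Libraries of 1 group differed by more than sampling noise (chi-square per gene at least 10.6). The test of the replicate number itself was added after seeing the data. The fit with the groups only and the test of the replicate number were tried on simulated counts. The counts simulated for the group fit held no shared effect of the number. The fit with the block was not tried in this way for group differences. The members, lists and tests were chosen with earlier results of these data known. Named genes are the members, from each list the 4 called genes with the largest fold in PH-CM against UNX and the 2 with the largest in PH-CM against CO-CM, the 3 nearest genes of each member, and Vegfa, Slc2a1, Ldha, Pdk1, Egln2, Hif1an and Vhl. Ep300, Tfrc and the genes that did not pass the filter were named after their values were seen. Coordinates and exons come from GENCODE vM21 and promoters from RefSeq.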

Additional observations from a re-analysis of the deposited data

How the results depend on the processing

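With the replicate number as a block the members called rose from 2 to 6 (PH-CM against UNX), 4 to 7 (CO-CM against UNX) and 4 to 9 (PH-CM against CO-CM), and the other HIF targets from 17 to 31 and from 14 to 28 in the last 2 comparisons. The receptor genes of adrenomedullin called in PH-CM against UNX went from 1 to 2. The block changed no other count of calls by more than 1.5 times. Of single genes it changed the calls given with their blocked value above, and P4ha1 in PH-CM against UNX, uncalled in either fit, moved from -0.00059 to 0.0093. With no filter on low counts the members called were 6, 7 and 9, the other HIF targets 33 and 23 in the last 2 comparisons, and the oxygen sensing partners 2 in PH-CM against CO-CM, as with filterByExpr (2 instead of 1). With a fold of at least 2 the genes called were 2153, 1655 and 612, the members 0, 1 and 2, the partners 0, 0 and 0 and the other targets 11, 6 and 3. The cause of the rise without a filter was not tested.

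Directions turned only for values that were not called. Upper-quartile factors gave P4ha1 0.027 in PH-CM against UNX, Egln3 0.058 and Cited2 0.053 in CO-CM against UNX, and Siah2 -0.031 and Os9 -0.015 in PH-CM against CO-CM. In CO-CM against UNX DESeq2 gave Egln3 0.0017, library size alone Bnip3 -0.022 and Egln2 -0.049, no filter Egln2 -0.019 and filterByExpr Egln2 -0.012.

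With each library left out in turn the members called ran from 2 to 4 and from 2 to 5 in the comparisons with UNX, the partners called in PH-CM against CO-CM from 1 to 3, and all genes differing by number from 1159 to 2367, the lowest without CO-CM library 2. In PH-CM against UNX Egln1 ran from -0.073 to 0.29, Adm from -0.40 to 0.26, P4ha1 from -0.12 to 0.13 and Slc2a1 from -0.42 to 0.021. In CO-CM against UNX Egln3 ran from -0.53 to 0.51, Bnip3 from -0.38 to 0.52, Ankrd37 from -0.83 to 0.026, Cited2 from -0.075 to 0.038, Egln2 from -0.0013 to 0.034 and Ddit4 from -0.046 to 0.14. In PH-CM against CO-CM Siah2 ran from -0.043 to 0.062, Os9 from -0.00012 to 0.049, Pdk1 from -0.090 to 0.54 and the Egln3 to Egln1 ratio from -0.0020 to 0.72.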
